A study of Mus musculus with 12 samples.

Results

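Loss of Mib1 in adenomas was examined by setting 2 arrays of Notch-inactivated tumours against 2 arrays of WT tumours, 4 of the 12 Illumina bead arrays of the series, across all 23079 features that passed a background filter. A feature is a named gene, of which 5459 were measured, or 1 of 17620 probes without a name. All mice were Apcmin, a strain that carries a mutant copy of the tumour suppressor Apc and forms intestinal adenomas. The Notch-inactivated mice also carried Vil-Cre;Mib1f/f, in which the Villin promoter drives Cre recombinase in the gut epithelium and Cre deletes Mib1 there, so stromal and immune cells of the tumour keep the gene. The WT mice were labelled wt at this locus. Normal tissue of Notch-inactivated and of WT mice (2 arrays each) and Notch-activated tumours (Vil-Cre;RosaN1+/RN1, 2 arrays) were used beside them where stated. The sources used here give no gut segment, age or sex. They do not state whether both arrays of a genotype stem from different mice, so the p-values measure the spread between these arrays, which may be technical.

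Mib1 is a ubiquitin ligase of the cell that sends a Notch signal. It marks Delta and Jagged ligands for uptake, and the pull of that uptake exposes the receptor on the neighbouring cell to cleavage by Adam proteases and gamma-secretase. The freed intracellular part of Notch joins the DNA-binding protein Rbpj and switches on Hes genes, which in gut crypts hold back the secretory regulator Atoh1. In normal intestine, loss of Notch signalling turns dividing progenitors into goblet and other secretory cells. Adenoma cells of Apcmin mice are known to run on unrestrained Wnt signalling.

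Values are log2 signals as deposited, and a difference is the mean of the Notch-inactivated arrays minus the mean of the WT arrays, in log2 units. The tumour label was checked on a single gene, which does not by itself establish the tissue. Prox1, a Wnt-driven transcription factor of adenomas, read 9.44 and 9.42 in Notch-inactivated tumours and 9.33 and 9.75 in WT tumours, against 5.69 to 6.01 on the 4 arrays of normal tissue. The 4 tumour arrays did not separate by genotype over all features. Notch-inactivated array 1 correlated best with WT array 2 (r = 0.989) and Notch-inactivated array 2 with WT array 1 (r = 0.990), above the pairs within a genotype (0.987 for Notch-inactivated, 0.988 for WT). These correlations are across features and carry no test. Clca1, a protein of goblet cell mucus, followed this split with 11.65 and 8.15 in Notch-inactivated tumours and 7.81 and 12.10 in WT tumours. The mean over 8 goblet cell genes was 9.70 and 8.73 in Notch-inactivated tumours and 8.81 and 9.54 in WT tumours, and that over 11 Paneth cell genes 10.01 and 9.07 against 9.30 and 9.49. Both ranges overlapped between the genotypes, and the goblet cell means were high on Notch-inactivated array 1 and WT array 2.

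Mib1 itself was read first, on a probe whose place relative to the deleted exons is not known, so it does not by itself check the labels. Its signal was 6.19 and 6.27 in Notch-inactivated tumours and 6.73 and 6.77 in WT tumours, a difference of -0.52 (SE 0.10; adjusted p = 0.153). Both Notch-inactivated values lay below both WT values, but the difference did not pass the test. In normal tissue the Mib1 values were 6.17 and 6.07 against 6.37 and 6.44 (difference -0.28, adjusted p = 0.180). The signal of whole tissue includes cells that Villin-Cre does not reach, and fewer cells of a type cannot be told apart from less RNA per cell in such samples. Apc read 6.57 and 6.62 in Notch-inactivated tumours and 6.61 and 6.58 in WT tumours. The eGFP probe, which marks the Notch1 transgene of the activated mice, was at background on all 4 arrays (5.12 and 5.16 against 5.27 and 5.48), while it read 9.50 and 9.73 in Notch-activated tumours. A control probe for Cre read 5.98 and 5.85 in Notch-inactivated tumours and 5.39 and 5.32 in WT tumours, where the background limit was 5.58 to 5.64. A second control probe for Cre was below the limit on all 4 tumour arrays (5.48 and 5.41 against 5.17 and 5.37), and another was above it on 0 of 12 arrays. In normal tissue the first Cre probe read 7.83 and 7.38 in Notch-inactivated mice and 8.52 and 7.99 in WT mice, so it did not follow the genotype labels there.

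Few features were called different between the genotypes in tumours, and a feature that was not called may still differ. At an adjusted p under 0.05 over all features (limma with Benjamini-Hochberg adjustment, 12 arrays sharing their estimate of spread), 45 features, 0.195% of those tested, were called. Of these 24 rose (0.104%) and 21 fell (0.091%). Named genes made up 13 of the 45: Shoc2 and Qsox1 rose, and Hbb-b2, Slc5a8, A330102I10Rik, Reg1, Mrps10 and 6 immunoglobulin variable segments fell. The other 32 were probes without a name, of which 22 rose and 10 fell. Without adjustment, 1018 features (4.41%) had p under 0.05. The median difference of all features was 0.003, and 61.6% of features differed by less than 0.1. A difference of at least 1 in size, positive or negative, was found for 129 features, of which 29 were called, against 424 for the same genotypes in normal tissue. WT tumours differed from WT normal tissue by that much at 3077 features. In 7706 features (33.4%) the groups did not overlap, that is, both Notch-inactivated arrays lay above (17%) or below (16.4%) both WT arrays, so such a separation alone is common.

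**Figure D1:**
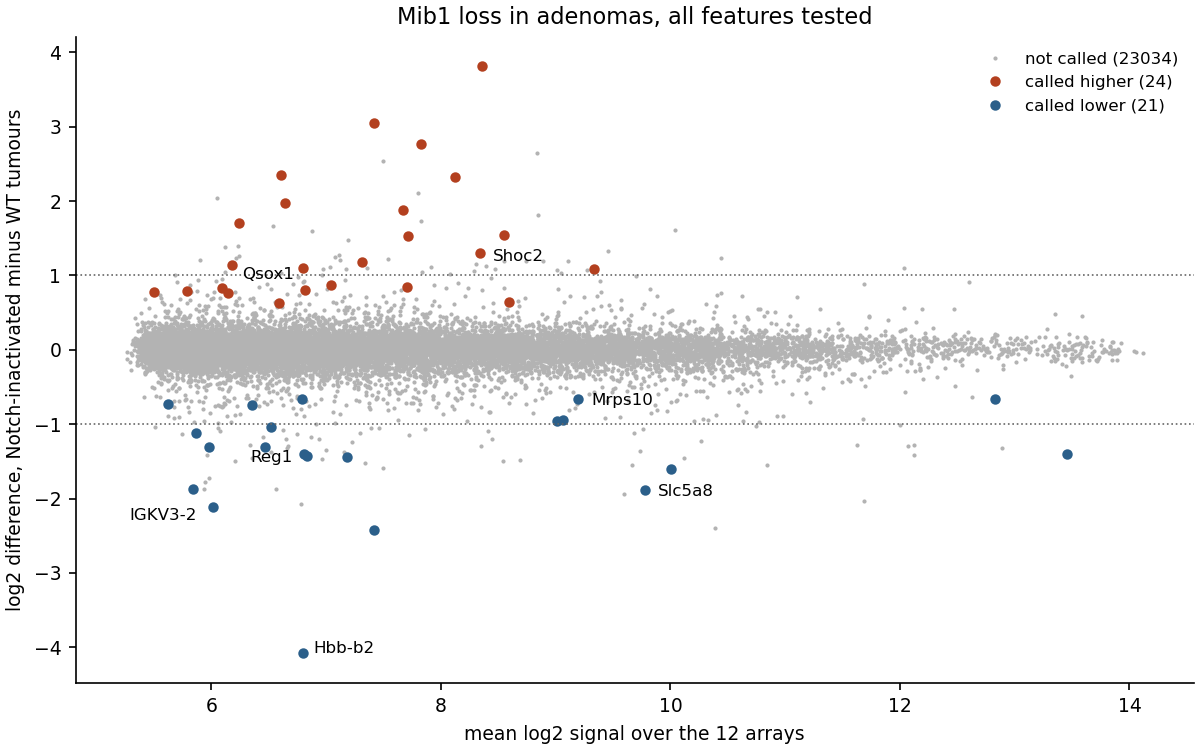
Difference between Notch-inactivated and WT tumours (vertical axis, log2) against the mean log2 signal over 12 arrays (horizontal axis) for all 23079 features. Red points are the 24 features called higher, blue the 21 called lower, grey the rest, and dotted lines mark 1 and -1. Most features lie close to 0 at every signal, and the called ones spread over signals from under 6 to over 13.

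The calls rest on the spread of all 12 arrays. A fit over the 4 tumour arrays alone called 0 features (smallest adjusted p = 0.0712, with 1292 features at an unadjusted p under 0.05), and a fit over the 6 tumour arrays called 8, all higher. Of the 13 named genes, Shoc2 was the 1 that kept its call in the fit over the 6 tumour arrays. Leaving out Notch-inactivated array 1, Notch-inactivated array 2, WT array 1 or WT array 2 gave 38, 18, 34 and 25 calls, among which 16, 7, 13 and 12 of the 45 remained. None of the 45 changed sign in any of these fits, but this was largely fixed in advance and adds no support. The fits over the 4 and the 6 tumour arrays leave each difference as it was. Where the groups do not overlap, leaving out 1 array cannot reverse the sign.

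Shoc2, a scaffold protein that helps Ras switch on Raf, gave the call that held in the most settings among named genes, on a probe whose name is less firm. Its signal was 8.53 and 8.73 in Notch-inactivated tumours and 7.32 and 7.32 in WT tumours, a 2.48-fold rise (difference 1.31, SE 0.11; adjusted p = 0.00268). The call held without any single array. It was lost in the fit over the 4 arrays alone (adjusted p = 0.132). The gene lies on chromosome 19 from 53944232 to 54033280 (GRCm38.p6). A second Shoc2 probe, whose identifier names the gene more firmly but which lay close to background, read 5.72 and 5.62 against 5.65 and 5.63 and showed a difference of 0.03, so the 2 probes disagree, and the difference of their mean was 0.67 (adjusted p = 0.028). In normal tissue the brighter probe read 7.59 and 7.82 in Notch-inactivated mice and 7.71 and 7.82 in WT mice (difference -0.06, adjusted p = 0.838). The tumour effect exceeded the normal effect by 1.37 (adjusted p = 0.0067).

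Qsox1, an enzyme that forms disulfide bonds in secreted proteins, read 7.12 and 7.23 in Notch-inactivated tumours and 6.29 and 6.45 in WT tumours. This was a 1.75-fold rise (difference 0.81, SE 0.09; adjusted p = 0.015). In normal tissue its values were 8.20 and 8.34 against 7.43 and 7.44, a rise of 0.84 (adjusted p = 0.00155), so Qsox1 rose in both tissues and the tissue test found a difference of -0.03 (adjusted p = 0.973). The tumour call was lost without Notch-inactivated array 2 (adjusted p = 0.0798) or WT array 1 (0.0607).

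Slc5a8 and Reg1 were the called genes of the colon and enterocyte lists. Slc5a8 carries butyrate and other short fatty acids into colon cells with sodium. It read 6.28 and 6.12 in Notch-inactivated tumours and 7.69 and 8.47 in WT tumours, 3.68-fold lower (difference -1.88, SE 0.29; adjusted p = 0.0449). Both Notch-inactivated arrays were low, and the WT arrays differed from each other by more than those did. The call was lost without Notch-inactivated array 1 (adjusted p = 0.133), Notch-inactivated array 2 (0.228) or WT array 2 (0.214), and with an intensity trend and robust prior (0.0619). In normal tissue, where the gene is far brighter, Slc5a8 read 10.72 and 9.97 in Notch-inactivated mice and 12.03 and 12.19 in WT mice, a fall of similar size (difference -1.77, adjusted p = 0.0105; tissue difference -0.11, adjusted p = 0.968).

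Reg1 encodes a secreted lectin of the gut and pancreas. Its signal was 6.15 and 6.24 in Notch-inactivated tumours and 7.83 and 7.37 in WT tumours, 2.64-fold lower (difference -1.40, SE 0.16; adjusted p = 0.015). In normal tissue the Reg1 probe did not exceed the background limit on any WT array and gave no measurable level there (5.51 and 5.53 in Notch-inactivated mice against 5.54 and 5.70 in WT mice). The Reg1 call was lost without Notch-inactivated array 1 (adjusted p = 0.0507) or array 2 (0.0545).

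The promoters of Qsox1, Reg1 and Slc5a8 are shown because Notch acts on transcription through Rbpj, which binds the core letters TGGGAA. Each window runs from 250 bases before to 50 after the start of the gene (RefSeq, GRCm38.p6), and capitals mark TGGGAA or its reverse complement TTCCCA.
Qsox1, chr1:155812850-155813149, minus strand: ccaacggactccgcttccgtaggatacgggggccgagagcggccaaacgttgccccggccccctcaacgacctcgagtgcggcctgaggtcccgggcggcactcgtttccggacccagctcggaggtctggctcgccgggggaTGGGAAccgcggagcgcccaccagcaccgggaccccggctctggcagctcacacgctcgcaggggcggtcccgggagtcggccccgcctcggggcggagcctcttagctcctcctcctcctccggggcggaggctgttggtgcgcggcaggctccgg
Reg1, chr6:78425733-78426032, plus strand: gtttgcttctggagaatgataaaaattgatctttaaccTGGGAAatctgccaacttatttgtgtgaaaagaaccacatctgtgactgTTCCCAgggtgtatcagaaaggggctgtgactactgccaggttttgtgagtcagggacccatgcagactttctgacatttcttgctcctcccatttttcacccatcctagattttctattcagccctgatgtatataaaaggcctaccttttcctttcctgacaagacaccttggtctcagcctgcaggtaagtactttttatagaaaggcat
Slc5a8, chr10:88885742-88886041, plus strand: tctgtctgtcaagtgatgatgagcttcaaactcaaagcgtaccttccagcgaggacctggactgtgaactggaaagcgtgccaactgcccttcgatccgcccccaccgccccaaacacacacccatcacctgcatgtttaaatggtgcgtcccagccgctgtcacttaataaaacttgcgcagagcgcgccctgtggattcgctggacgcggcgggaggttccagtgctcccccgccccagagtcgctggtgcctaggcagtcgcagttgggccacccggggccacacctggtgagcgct
The window of Qsox1 holds 1 match and that of Reg1 holds 2, on opposite strands. That of Slc5a8 holds 0, as do both start sites of Shoc2 and the window of Mrps10. Of all 32851 mouse promoter windows, 25.6% hold at least 1 match on either strand, so such matches are common, and a match is no sign of binding. The arrays did not measure promoters.

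**Figure D2:**
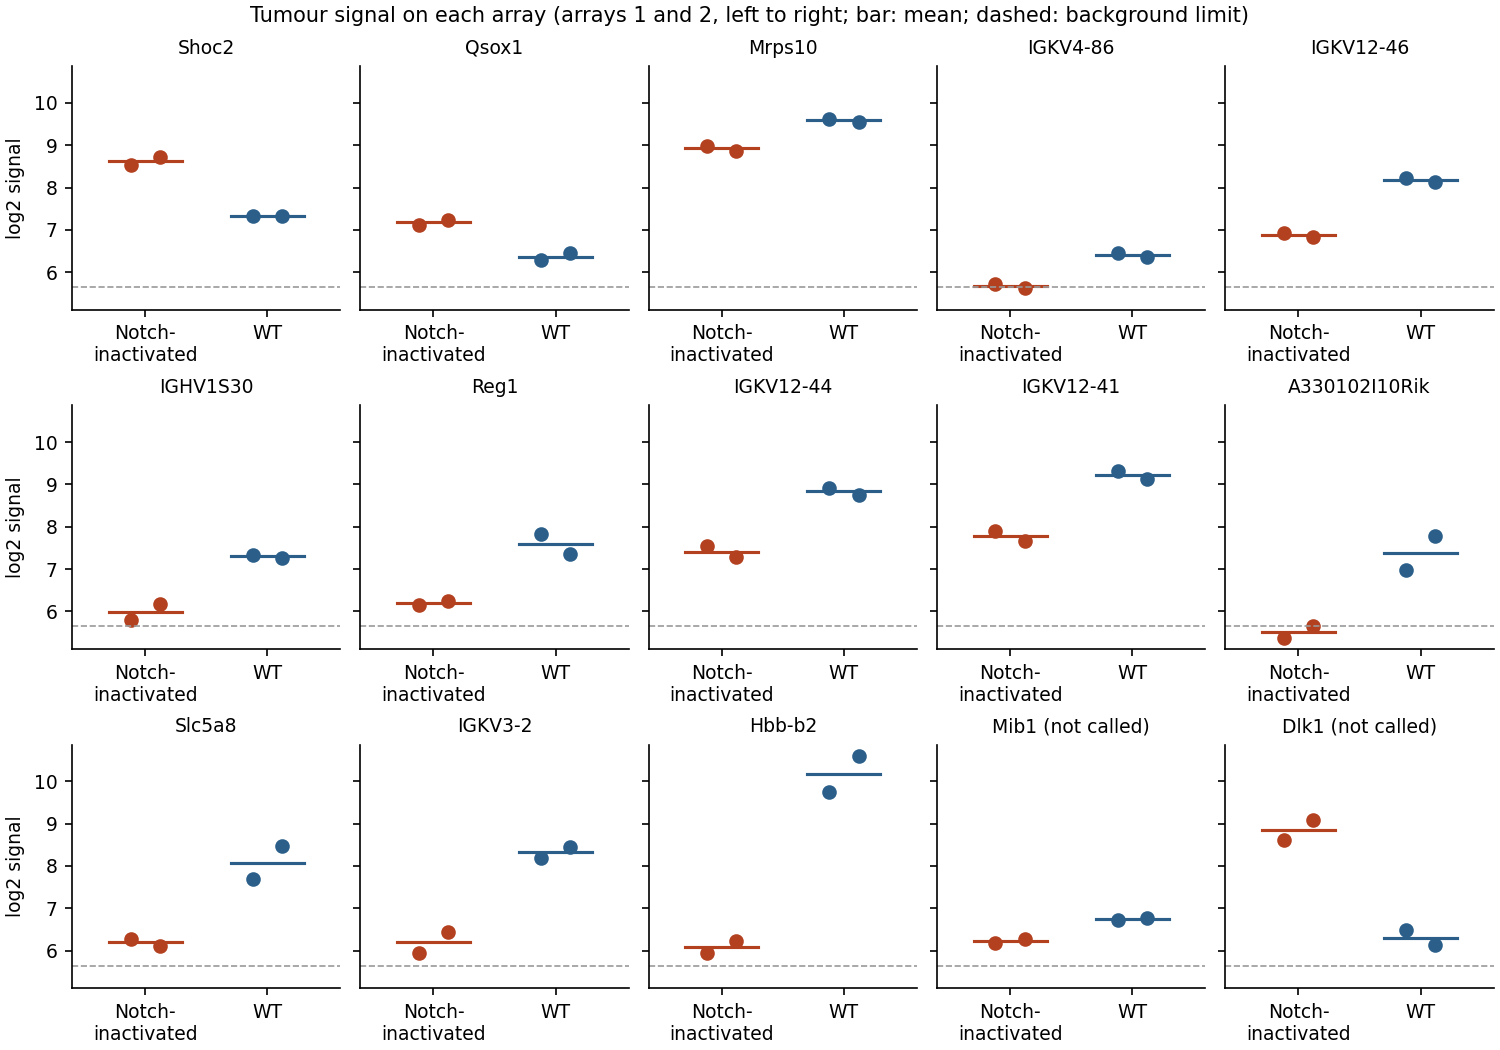
Log2 tumour signal of the 13 called named genes, and of Mib1 and Dlk1, which were not called. Each point is 1 array, each bar a group mean, and the dashed line the highest background limit of the 4 arrays. In every panel both Notch-inactivated points lie on the same side of both WT points, which for called genes largely follows from the call. A330102I10Rik and IGKV4-86 sit near the limit in Notch-inactivated tumours.

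Hbb-b2, an adult beta-globin of red blood cells, had the largest difference of any feature. It read 5.94 and 6.23 in Notch-inactivated tumours and 9.74 and 10.60 in WT tumours, 17.0-fold lower (difference -4.08, SE 0.53; adjusted p = 0.0205). The other 2 red cell genes measured did not pass the test. Hba-a1, alpha-globin, read 12.14 and 12.23 against 12.34 and 13.15 (difference -0.56), and Hbb-b1, the other adult beta-globin, 7.84 and 8.27 against 7.53 and 8.34 (difference 0.12), and neither was called. Beta-globin genes are near-identical copies that differ between mouse strains, and which of them the Hbb-b2 probe reads is not known. In normal tissue Hbb-b2 was low, just above background, in both genotypes (5.84 and 6.50 against 6.06 and 5.80). The Hbb-b2 call was lost without Notch-inactivated array 1 (adjusted p = 0.0810), Notch-inactivated array 2 (0.0798) or WT array 2 (0.129), and with an intensity trend and robust prior (0.0965).

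Immunoglobulin variable segments, which plasma cells transcribe, made up 6 of the 11 named genes that fell. IGKV12-41 read 7.90 and 7.66 in Notch-inactivated tumours and 9.32 and 9.12 in WT tumours, 2.72-fold lower (difference -1.44, SE 0.16; adjusted p = 0.015). Its neighbours by name IGKV12-44 (-1.42) and IGKV12-46 (-1.31) had similar values, and probes for such similar sequences may not tell them apart. IGKV3-2 fell by 2.12, IGHV1S30 fell by 1.31 and IGKV4-86 fell by 0.73. In each of the 6 both Notch-inactivated arrays lay below both WT arrays, which largely follows from their being called and adds no support. Of these calls, all were lost without at least 1 array: IGKV12-41, IGKV12-44 and IGKV4-86 without Notch-inactivated array 2 (adjusted p = 0.0666, 0.0586 and 0.0726) or WT array 1 (0.0506 each). IGHV1S30 was lost without Notch-inactivated array 1, WT array 1 or WT array 2 (0.0571, 0.0692 and 0.0756), and IGKV12-46 and IGKV3-2 whichever of the 4 was left out (0.0620 to 0.103 and 0.0935 to 0.237). IGKV3-2 was also lost with an intensity trend and robust prior (0.115).

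Most other immunoglobulin segments also had lower means in Notch-inactivated tumours without being called. Of 172 measured segments, 6 were called lower (0.091% of all features were) and 0 higher, 132 had a negative difference, and the median was -0.24 beside 0.003 over all features. In 57 of the 172 both Notch-inactivated arrays lay below both WT arrays. This holds for 16.4% of all features tested. The mean over the 172 segments was 6.13 and 6.57 in Notch-inactivated tumours and 6.49 and 6.86 in WT tumours, so the groups overlapped. Igkc, the constant part shared by all kappa chains, read 12.53 and 13.67 against 13.47 and 13.91 (difference -0.59, SE 0.54; not called), and 0 of 6 lymphocyte and plasma cell genes was called. The 6 lymphocyte and plasma cell genes had a mean of 7.81 and 8.06 in Notch-inactivated tumours and 8.15 and 8.59 in WT tumours, below WT on both arrays. That list includes Igkc and the immunoglobulin gene Ighg1 (-1.73), so its mean is in part the immunoglobulin signal itself, and 2 of its 6 members were positive. The part of plasma cell content in the segment differences was not tested.

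Mrps10, a protein of the mitochondrial ribosome, read 8.98 and 8.87 in Notch-inactivated tumours and 9.63 and 9.55 in WT tumours (difference -0.66, SE 0.10; adjusted p = 0.0375), the smallest change of a called named gene. The call was lost whichever of the 4 arrays was left out (adjusted p 0.104 to 0.230) and with an intensity trend and robust prior (0.0606). A330102I10Rik, a transcript known by its clone name, read 5.37 and 5.65 against 6.98 and 7.78 (difference -1.87, SE 0.25; adjusted p = 0.0243), with 1 of the 2 Notch-inactivated arrays below the background limit. Its call was lost without Notch-inactivated array 1 (0.104), array 2 (0.0789) or WT array 2 (0.0756).

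Among the 32 unnamed probes, the largest rises were those of scl42790.6_48-S, with 10.70 and 11.15 in Notch-inactivated tumours against 7.73 and 6.48 in WT tumours (difference 3.82, adjusted p = 0.0273), and of GI_38086272-S, with 9.43 and 10.86 against 6.78 and 7.40 (3.05, adjusted p = 0.0205). Both also rose in normal tissue, by 4.96 (adjusted p = 0.00141) and 3.41 (adjusted p = 0.00169). The largest falls were those of scl52400.3.8_10-S, with 6.60 and 6.90 against 8.92 and 9.42 (-2.42, adjusted p = 0.015), and scl0001020.1_68-S, with 10.58 and 9.77 against 11.95 and 11.62 (-1.61, adjusted p = 0.0326). Neither of these passed the test in normal tissue (0.36 and 0.89, adjusted p = 0.588 and 0.0716).

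Some named genes showed large differences that did not pass the test. Dlk1, a Delta-like membrane protein that can bind Notch without activating it, read 8.61 and 9.09 in Notch-inactivated tumours and 6.48 and 6.14 in WT tumours (difference 2.54, interval 1.27 to 3.82; adjusted p = 0.247). It passed the test in the fit over the 6 tumour arrays (adjusted p = 0.0375). In normal tissue it rose by 4.65 (10.02 and 12.41 against 6.39 and 6.72, adjusted p = 0.00245). Scgb2b26, a secretoglobin, read 11.42 and 12.03 against 8.81 and 9.34 in tumours (difference 2.65, adjusted p = 0.0647) and rose by 4.49 in normal tissue (adjusted p = 0.00104). For both genes the 2 Notch-inactivated tumour arrays lay above both WT arrays. Uncalled genes were named partly by such a lack of overlap, so it adds no support. The tissue test was not passed for either gene (adjusted p = 0.402 and 0.319). Ttyh1, a membrane protein, had a difference of 1.28 in tumours (adjusted p = 0.188) and rose by 2.52 in normal tissue (adjusted p = 0.00138). Gpnmb, a membrane protein of macrophages, read 10.29 and 9.66 against 8.37 and 8.38 (adjusted p = 0.251). Cox7a2l, a factor of respiratory supercomplexes, had a difference of 1.61, Cap1, an actin-binding protein, 1.23, the chemokine Ccl21a 1.24 and Slc12a8, a solute carrier of the goblet list, 1.20, with adjusted p between 0.104 and 0.249. On the other side Sycn, a secretory granule protein, read 7.43 and 7.13 against 8.66 and 10.70 (difference -2.40, adjusted p = 0.462), and the WT arrays differed from each other by about as much as the groups did.

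How large a change 2 arrays a side could show follows from the spread of each feature, estimated here over all arrays of the series. The fit over the 4 tumour arrays alone called 0 features, so the needed differences below do not apply to those arrays on their own. The 95% interval of a difference had a median half-width of 0.273, with 0.195 at the 5th percentile of features and 0.572 at the 95th. To be called at the threshold reached here, a feature of median spread needed an observed difference of 0.771 in size, or 1.71-fold. The 5th and 95th percentiles were 0.552 and 1.62 (1.47-fold and 3.07-fold). An observed difference of 1, that is 2-fold, was enough for 77.5% of features. A true change of that size can be observed as a smaller one and missed. The smallest called difference was 0.632. The needed difference was smallest for dim features, with a median of 0.693 below a mean signal of 6, 0.848 from 6 to 8, 0.868 from 8 to 10 and 0.802 above 10. Near background a signal can hardly fall, so a narrow interval there says less about the transcript.

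**Figure D3:**
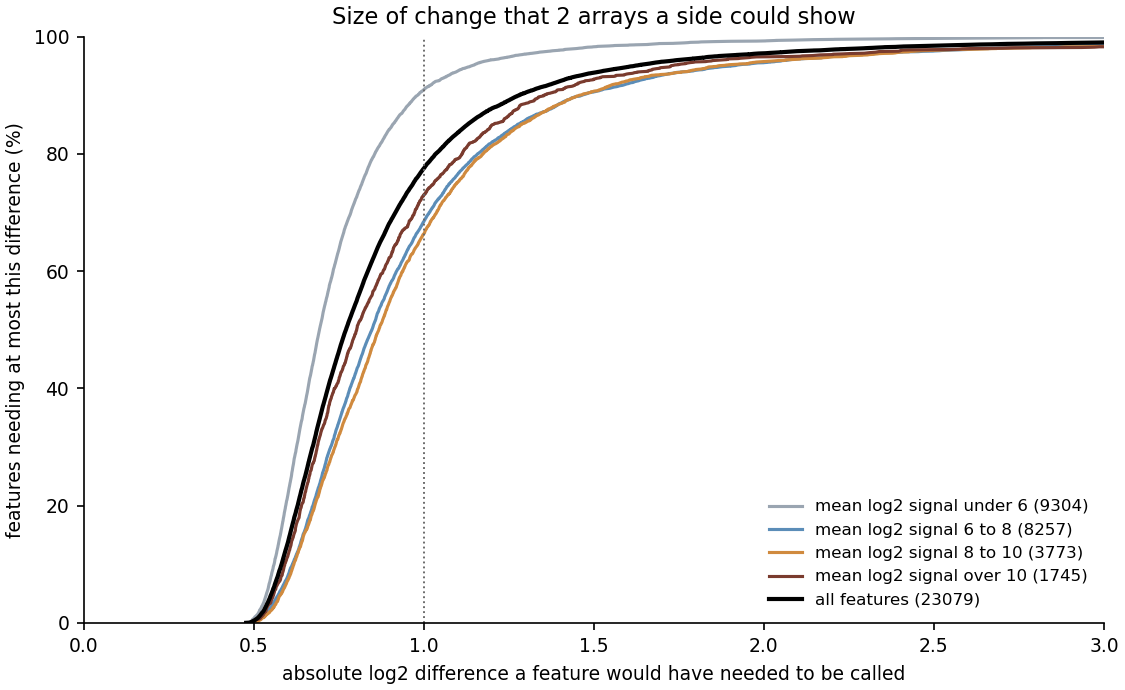
Share of features (vertical axis, percent) that would have been called at or below a given absolute log2 difference (horizontal axis), for all features (black) and by mean log2 signal (coloured). The dotted line marks an observed difference of 1, enough for 77.5% of all features. Curves for features brighter than 6 lie to the right of that for dimmer ones. The spread behind all curves was estimated over all arrays of the series, not from the tumour arrays of these genotypes alone.

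Most transcripts had narrow intervals around 0. The interval lay inside -0.5 to 0.5 for 18069 features (78.3%) and inside -1 to 1 for 22208 (96.2%), and for 4201 named genes (77.0%) it lay inside -0.5 to 0.5. By signal, 91.8% of features below 6, 68.9% from 6 to 8, 67.3% from 8 to 10 and 74.4% above 10 were held inside -0.5 to 0.5. These intervals are per feature and are not adjusted for the number of features.

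No measured gene of the Notch pathway was called. Of 23 listed effectors and targets 7 were measured, and all 7 had intervals inside -0.5 to 0.5. Among them were Klf5, an epithelial transcription factor (12.30 and 12.20 in Notch-inactivated tumours against 12.06 and 12.27 in WT tumours), the ubiquitin ligase Dtx3l (difference 0.12, interval -0.25 to 0.48) and Nrp1 (difference -0.07). Of 22 listed receptors and processing factors 16 were measured. Of the 16, 12 had intervals inside -0.5 to 0.5, for example the gamma-secretase subunit Psenen (difference 0.13, interval -0.07 to 0.33). Adam17, a protease that can cut Notch, had the largest difference of these, -0.40, which was not called, and Ncstn, another gamma-secretase subunit, 0.09 with an interval from -0.88 to 1.05. Of 10 listed ligands and ligand ligases 4 were measured: Mib1 and Dlk1 (above), the Delta ligand Dll4 near background (difference 0.00), and Neurl1a. The rest of each of these lists could not be read. Neurl1a, which like Mib1 marks ligands for uptake, had a difference of 0.10 (interval -0.42 to 0.62). Rbpj itself was close to background (5.69 and 5.53 against 5.67 and 5.61). Atoh1 exceeded the background limit on 1 of 12 arrays and no Hes gene is among the 7 measured effectors, so the steps from Notch to Atoh1 could not be read.

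No measured secretory cell gene was called in tumours. Named probes that passed the background filter covered 8 of 26 listed goblet, 11 of 27 Paneth, 5 of 30 enteroendocrine and 5 of 22 tuft cell genes. None of these passed the test, nor did any of the 4 of 19 secretory regulators measured. The rest of each list could not be read, and the called probes without a name may include some of those genes. The precision was poor for several of the measured genes. Only 2 of 8 goblet and 0 of 11 Paneth genes had intervals inside -0.5 to 0.5, and the interval of Clca1 ran from -3.42 to 3.32. Lyz1, lysozyme of Paneth cells, read 13.09 and 12.43 in Notch-inactivated tumours and 12.85 and 12.66 in WT tumours (difference 0.01, interval -1.13 to 1.15). Muc13, a membrane mucin, was measured more tightly (12.88 and 12.72 against 12.96 and 13.03; difference -0.19, interval -0.42 to 0.04). The enteroendocrine marker Ddc had -0.16 and the tuft cell marker Dclk1 -0.36, and both intervals included 0.

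Absorptive and colonic genes held 2 of the called falls, Reg1 (1 of 11 enterocyte genes) and Slc5a8 (1 of 17 colon and gut segment genes), where 0.091% of all features were called lower. The median of the colon list was -0.38, with 14 of 17 members negative and 6 of 17 lower on both Notch-inactivated arrays, as were 16.4% of all features. Members besides Slc5a8 did not pass the test, among them Sycn (above) and Car1, a carbonic anhydrase (9.87 and 10.48 against 9.80 and 10.95). Hoxb13, which marks the hindgut, read 11.19 and 11.42 in Notch-inactivated tumours and 11.41 and 11.26 in WT tumours (difference -0.03, interval -0.35 to 0.29). The mean over the 17 genes was 7.2 and 7.0 against 7.3 and 8.0, with WT array 2 above the other 3 arrays. Cdhr5, of the enterocyte brush border, had -0.48 (adjusted p = 0.450) and the glucose transporter Slc5a1 0.13.

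Wnt targets, the hallmark of these adenomas, gave no call either. Of 15 measured genes 0 passed the test, their median difference was 0.06, and all 15 had intervals inside -1 to 1, 9 of them inside -0.5 to 0.5. Ccnd1, cyclin D1, read 11.36 and 11.61 against 11.74 and 11.71 (difference -0.24), Ets2, a transcription factor, 12.44 and 12.46 against 12.46 and 12.45, and the tight junction gene Cldn2 11.35 and 11.30 against 11.34 and 11.37 (-0.03). Of 22 replication and mitosis genes 0 were called. Their median was 0.15 and 20 of 22 were positive, while 2 of 22 were higher on both Notch-inactivated arrays, a pattern shown by 17% of all features. Tubb5, a tubulin, differed by 0.01 and Cenpa, a centromere histone, by 0.01. Of 11 stem cell genes 0 were called. Clca4a, a regulator of chloride channels, had the largest difference among them (9.89 and 9.50 against 10.69 and 11.52; -1.42, adjusted p = 0.0853). A second, dimmer Clca4a probe had -0.55 and the mean over both -0.98, and without WT array 1 the difference was -1.83 and passed the test (adjusted p = 0.0174).

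**Figure D4:**
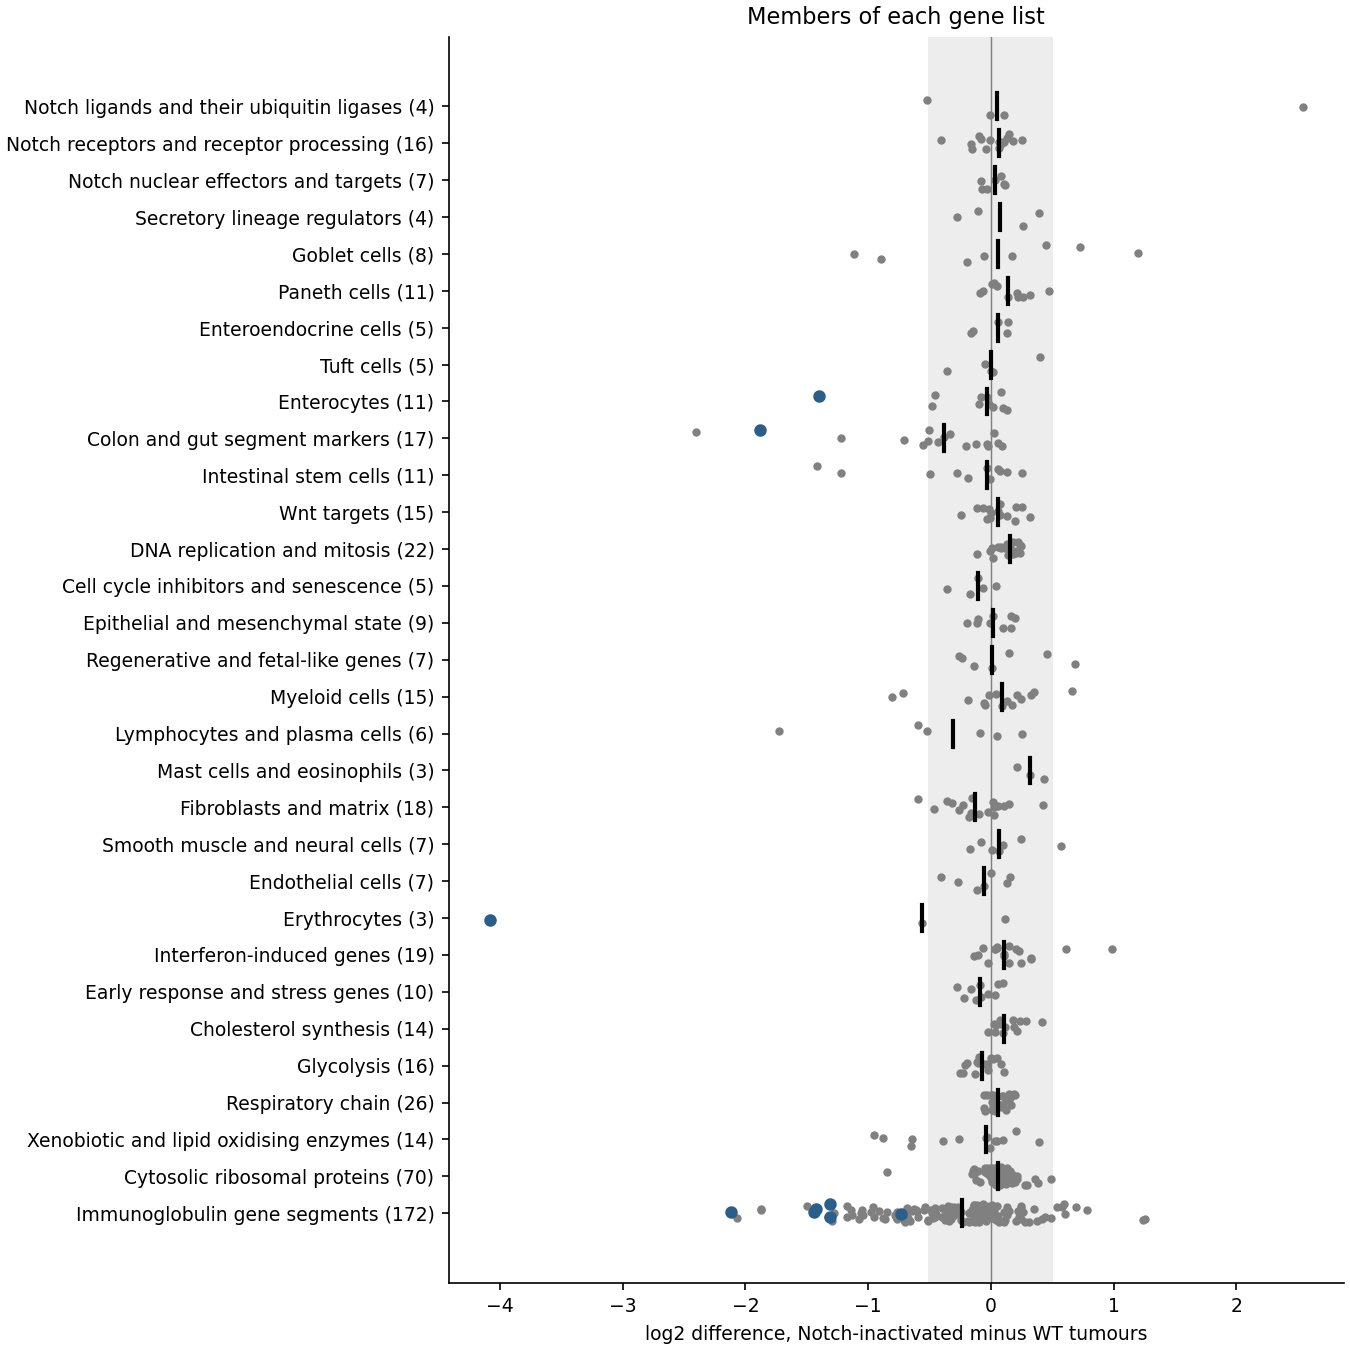
Log2 differences (horizontal axis) of the measured members of each gene list, with the number measured beside the name. Blue points are called members, grey points the others, black bars medians, and the shaded band runs from -0.5 to 0.5. Called members stand in the enterocyte, colon, erythrocyte and immunoglobulin lists.

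None of the following stromal and immune genes was called: 15 myeloid, 18 fibroblast and matrix, 7 endothelial, 7 smooth muscle and neural, 3 mast cell and eosinophil and 19 interferon-induced genes. Lyz2, lysozyme of macrophages, read 11.61 and 11.26 in Notch-inactivated tumours and 10.48 and 11.07 in WT tumours (difference 0.66, adjusted p = 0.815). Igfbp5, which binds insulin-like growth factors, read 11.43 and 11.70 against 12.14 and 12.18 (-0.59, adjusted p = 0.861). The matrix proteoglycan Dcn had -0.16. Of the 18 fibroblast and matrix genes 7 were lower on both Notch-inactivated arrays than on both WT arrays, as were 16.4% of all features, and 0 were higher. Respiratory chain, ribosomal protein and glycolysis genes mostly had narrow intervals. All 26 respiratory chain genes had intervals inside -0.5 to 0.5, as did 61 of 70 ribosomal protein genes and 13 of 16 glycolysis genes. Gapdh read 14.04 and 13.81 in Notch-inactivated tumours and 13.69 and 13.95 in WT tumours. Cholesterol synthesis genes were positive in 13 of 14 cases with a median of 0.11, and 0 of 14 was called. On both Notch-inactivated arrays 7 of the 14 were higher than on both WT arrays, as were 17% of all features, and 0 were lower. Nor was any of 9 epithelial and mesenchymal state, 5 cell cycle inhibitor, 7 regenerative, 10 early response or 14 xenobiotic enzyme genes. Of 25 markers of adipocytes, pancreas and liver, 0 had a named probe that passed the background filter. Genes without a named probe could not be read, so this does not show that such tissue was absent.

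The same genotypes gave more calls in normal tissue than in tumours, and 14 of the 45 tumour calls were shared, most of them rises. In normal tissue 954 features were called (4.13%), 496 higher (2.15%) and 458 lower (1.98%), with the same number of arrays and no array in common. Of the 24 features that rose in tumours, 13 also rose in normal tissue, as did 2.15% of all features. Of the 21 that fell, 1 also fell there, Slc5a8, and 1 of the 45 was called in opposite directions. Of these 21, 10 were above background on 0 of the 2 WT normal arrays, so no fall could show for them in normal tissue and the count of shared falls is limited in advance. The 14 shared calls are 31.1% of the tumour calls and 1.47% of the normal calls, a share that the small number of tumour calls limits. A test of the tissue difference itself called 162 features (0.702%), with the tumour effect above the normal effect at 61 (0.264%) and below it at 101 (0.438%). Of the 45 tumour calls, 19 passed it, 5 that rose and 14 that fell. Of the 14, 8 were not above background on either WT normal array, among them Reg1 and the segments IGHV1S30, IGKV12-44, IGKV12-46 and IGKV4-86, so their tissue difference sets a tumour fall against a floor. Hbb-b2, another of the 14, lay just above background in normal tissue, so a fall of its tumour size could not show there. For the 26 calls that did not pass the tissue test, a difference between the tissues was not shown.

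**Figure D5:**
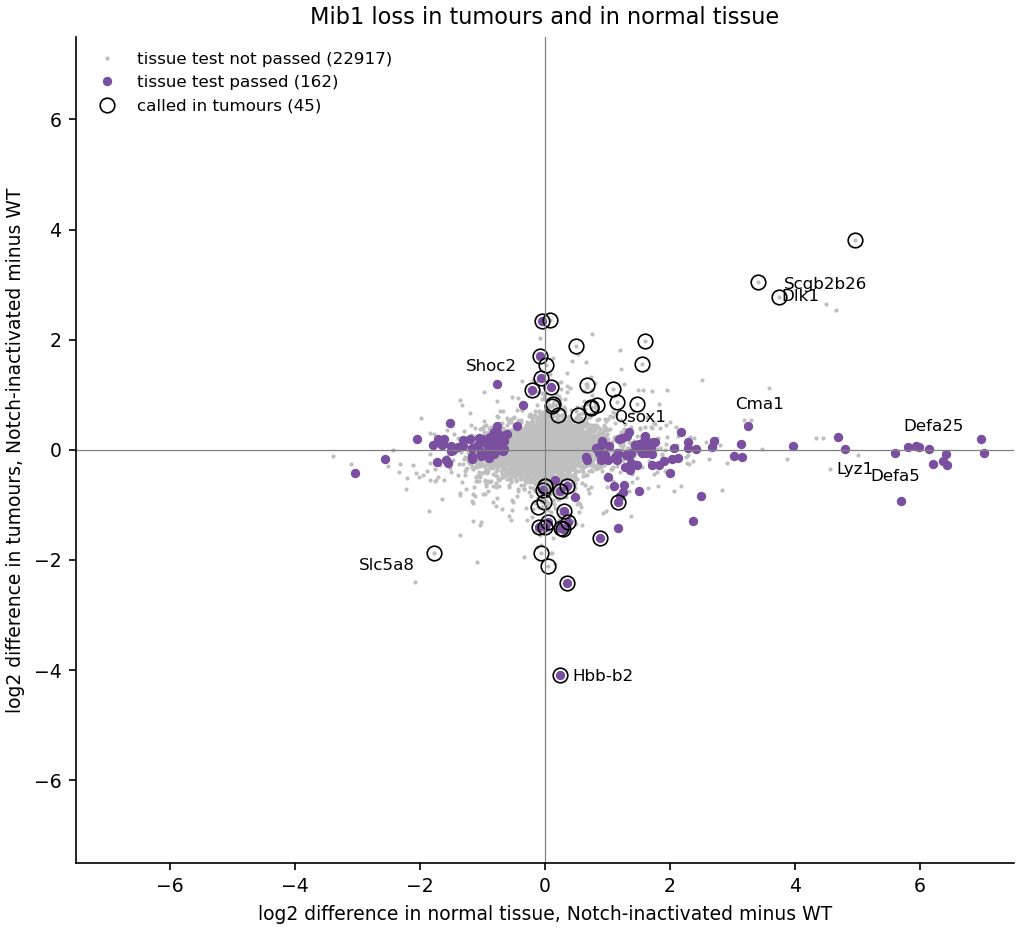
Difference between Notch-inactivated and WT samples in tumours (vertical axis, log2) against that in normal tissue (horizontal axis, log2). Purple points passed the tissue test (162), open circles mark the 45 features called in tumours. The Paneth genes Lyz1, Defa5 and Defa25 lie far to the right at heights near 0, while Hbb-b2 and Shoc2 lie off the horizontal axis at normal differences near 0.

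Paneth cell genes gave some of the largest tissue differences. Of 11 measured, 8 rose in Notch-inactivated normal tissue (2.15% of all features did), 0 were called in tumours, and 4 passed the tissue test (0.702% of all features did). Defa5, an alpha-defensin, read 12.27 and 11.08 in Notch-inactivated tumours and 11.67 and 11.81 in WT tumours (difference -0.07, interval -1.05 to 0.91). In normal tissue it read 11.76 and 10.33 in Notch-inactivated mice and lay at background in WT mice, a rise of at least 39.2-fold (adjusted p = 3.02e-04; tissue difference -5.67, adjusted p = 0.0058). Lyz1 read 11.31 and 12.27 against 6.95 and 7.03 in normal tissue (difference 4.80, adjusted p = 0.00141; tissue difference -4.79, adjusted p = 0.0233). In tumours of either genotype the signals of both genes lay within or above the range of Notch-inactivated normal tissue. Alpha-defensins are near-identical copies, and a probe may read several of them.

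The stem cell marker Prom1 also rose in Notch-inactivated normal tissue (1.61, adjusted p = 7.39e-04) but had 0.25 in tumours (12.51 and 12.32 against 12.27 and 12.06; tissue adjusted p = 0.0246). The mast cell protease Cma1 rose by 3.25 in normal tissue (adjusted p = 3.02e-04), while its tumour signals were 6.68 and 6.86 against 6.34 and 6.33 (tissue adjusted p = 0.0129). On its brighter probe Clca4a rose by 1.18 in normal tissue (adjusted p = 0.0289) and had -1.42 in tumours (tissue adjusted p = 0.0144). Cldn4, a tight junction protein, rose by 1.66 in normal tissue (adjusted p = 0.00217) and had 0.20 in tumours, without passing the tissue test (adjusted p = 0.0582).

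Notch-activated tumours were measured against the same 2 WT tumour arrays, so a value that is odd on those arrays enters both comparisons. Shoc2 read 9.29 and 9.21 in Notch-activated tumours, 1.93 above WT, while it was 1.31 above WT in Notch-inactivated tumours. Hbb-b2 read 7.15 and 5.62 in Notch-activated tumours, the second value below background, beside a difference of -4.08 in Notch-inactivated tumours, and the 6 immunoglobulin segments and A330102I10Rik also had negative differences in both. Slc5a8 differed in direction, with 10.92 and 10.41 in Notch-activated tumours (difference 2.58) and -1.88 in Notch-inactivated tumours. Reg1 read 7.69 and 7.75 in Notch-activated tumours (difference 0.12), beside -1.40 in Notch-inactivated tumours. Qsox1 had -0.46 in Notch-activated and 0.81 in Notch-inactivated tumours. The Paneth gene Lyz1 read 5.70 (below background) and 7.56 in Notch-activated tumours, beside a difference of 0.01 in Notch-inactivated tumours.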

How the data were processed

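RNA of 12 tissue samples was labelled with biotin and hybridised to Illumina bead arrays, per the labels. The deposited table gives 1 value per probe and array, taken here as log2 signal quantile normalized by the authors, from the values, whose median (5.54) and highest value (14.2) are alike across arrays. No source used here names the software, the log base or a background correction. A companion table with 24 columns of per-sample values was not used, because its columns could not be tied to samples. Probes were named by the NCBI gene number in their identifier (81.1% and 84.8% of numbers after 1 and 2 zeros matched a RefSeq gene, GRCm38.p6), and names after 2 zeros, such as Shoc2, Qsox1, Slc5a8, Hbb-b2, Dlk1 and Mib1, are less firm: ribosomal protein probes had a median signal of 13.2 after 1 zero and 6.49 after 2. Immunoglobulin segments are named in the identifier. Of 46628 probes, 627 controls were left out, and 23823 (51.8%) exceeded the 95th percentile of 52 probes for foreign sequences on at least 2 of 12 arrays. The brightest probe stood for a gene. limma 3.58.1 (R 4.3.3) fitted 6 group means to 12 arrays, with eBayes and Benjamini-Hochberg adjustment over all features, and was tested on simulated data. Named genes were the altered genes, called genes, the largest uncalled differences without overlap up to 12 a direction, each list's called, most different and 3 brightest members, and up to 2 unnamed probes a direction. The genes, lists and tests were chosen with earlier results of these data known. Dlk1 in the plot, and Rbpj-core letters in promoters, were chosen after values were seen. The number of arrays limits the precision.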

Additional observations from a re-analysis of the deposited data

Results flagged for a closer look

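These results stand out because the effect of Mib1 loss differed between tumours and normal tissue by a test of the difference itself (limma, adjusted p under 0.05). The value given is the tumour effect minus the normal effect, in log2 units. It was positive for Hyi (1.96), which had 1.19 in tumours and -0.77 in normal tissue, neither past the test, and for Shoc2 (1.37). Among genes that rose in normal tissue it was -5.76 for Defa25, -5.67 for Defa5, -4.79 for Lyz1, -2.81 for Cma1, -2.59 for Clca4a (on its brighter probe) and -1.36 for Prom1. Among genes that fell in tumours and were above background on both WT normal arrays it was -1.02 for Mrps10 and -1.73 for IGKV12-41. For Hbb-b2 it was -4.32, but its WT normal signal lay just above background, where a fall of its tumour size could not show. It was -1.30 for Reg1, -1.37 for IGHV1S30, -1.68 for IGKV12-44, -1.68 for IGKV12-46 and -0.70 for IGKV4-86, but these were not above background on either WT normal array, where no fall could show, so the values show no difference between the tissues. The ribosomal protein gene Rpl29 (-1.34) had -0.85 in tumours and 0.49 in normal tissue, neither past the test. The unnamed probes scl52400.3.8_10-S and scl0001020.1_68-S had -2.78 and -2.49, the second of them not above background on either WT normal array. No outlier test was made, since groups of 2 arrays allow none.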

How the results depend on the processing

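Of the 45 tumour calls, 41 were also made with cyclic loess, 45 without a background filter (49 calls in all), 45 with the filter on the 4 arrays (48 calls), 45 with the mean over probes and 37 with an intensity trend and robust prior (41 calls). The fit over the 4 arrays alone called 0 and that over the 6 tumour arrays 8. With the replicate number as a block over all arrays the count was 45, of which 39 were among the reported calls, and with a replicate block within tissue it was 28 (24 shared). A shared number is not stated to pair arrays, and the deviations of same-numbered Notch-inactivated and WT tumour arrays correlated at -0.382, so a crossed replicate block, chosen after seeing the data, was also run and gave 55 calls. The replicate block ended the calls of Slc5a8 (adjusted p = 0.0811), IGKV3-2 (0.0771) and Mrps10 (0.0509). The block within tissue ended those 3 (0.157, 0.144 and 0.122), Hbb-b2 (0.0550) and IGHV1S30 (0.0569), and made a call of Scgb2b26 (0.0364). The crossed block ended IGKV3-2 (0.0582) and Mrps10 (0.0572) and made calls of Clca4a (0.0191) and Ugt1a6a (0.0268). Leaving out 1 array gave 18 to 38 tumour calls, 818 to 871 normal calls and 69 to 96 tissue calls. The tissue test gave 86 calls with the replicate block within tissue. The number of features inside -0.5 to 0.5 rose to 39617 without a filter, as 44302 features then entered, and the median half-width without 1 array was 0.341 to 0.345. Shoc2 and 2 unnamed probes that rose were called in 13 of 14 other fits. For the 125 named genes, 1552 of 1749 refitted differences stayed alike in direction and call, 97 uncalled values moved, 93 lost a call and 7 gained 1. The causes were not tested. The files name no slide or scan, so that block was not run.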
